A study of Mus musculus with 15 samples.

Results

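The regions described here carried an H3K27ac peak in D-EPSCs and in neither ESCs nor L-EPSCs. They were selected on the H3K27ac peak calls themselves: overlapping or touching peaks of the 3 H3K27ac lists were merged into union regions, and regions with a peak from D-EPSCs alone were kept. This left 4243 of 70360 union regions (6.03%), here called D-EPSC-only regions, and each of them held 1 D-EPSC peak. They made up 12.9% of the 32782 D-EPSC peaks and covered 2.65 Mb of the genome. By the same rule 1951 regions belonged to L-EPSCs alone and 37735 to ESCs alone, 1656 were shared by both EPSC types without ESCs, and 14972 were found in all 3 states. That number and the absence of the peak in the other states are set by the rule and are not a result.

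ChIP-seq of the histone marks H3K27ac and H3K4me1 was performed in mouse ESCs of the J1 line (strain 129SV) and in expanded potential stem cells (EPSCs) derived from them. The states had 1 input and 2 samples of each mark apiece. The EPSCs were converted from the ESCs and grown without feeder cells before ChIP. ESCs were grown in medium with 15% fetal bovine serum, LIF at 1000 units per mL, the GSK3 inhibitor CHIR99021 at 3 µM and the MEK inhibitor PD0325901 at 1 µM. D-EPSCs were grown in N2B27 medium with 5% knockout serum replacement, LIF at 1000 units per mL, CHIR99021 at 3 µM, dimethindene maleate at 2 µM, which blocks histamine and muscarinic receptors, and minocycline hydrochloride at 2 µM, without PD0325901. L-EPSCs were grown with 20% knockout serum replacement, LIF at 1000 units per mL, CHIR99021 at 3 µM, PD0325901 at 1 µM, the Src family inhibitor A-419259 at 0.3 µM, the tankyrase inhibitor XAV939 at 5 µM, JNK inhibitor VIII at 4 µM and the p38 inhibitor SB203580 at 10 µM. LIF and CHIR99021 were thus shared by all 3 media, so no state was grown without them. All 3 states derive from a single cell line, and the media differ in several components at a time, so the effect of any 1 of them cannot be told apart from the rest.

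The data hold 1 list of broad peaks per state and mark, with positions and no counts or scores, so the differences below lack a replicate check and none was tested for significance. The H3K27ac lists differed in length, from 26966 peaks for L-EPSCs and 32782 for D-EPSCs up to 64342 for ESCs. Read depth is unknown from these lists, and a region without a peak may hold acetylation below the calling threshold. Intervals of 95% given with shares are Wilson intervals over regions and cover counting error only. H3K27ac lay within 1 kb of the start of Pou5f1, Sox2 and Nanog in all 3 states. Of 14 fibroblast markers, for the feeder cells that the cultures could hold, Fn1 alone had H3K27ac at its start, in each state, and 5 had some within 10 kb of the gene in D-EPSCs, against 4 for ESCs and 3 for L-EPSCs.

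Acetylation of lysine 27 on histone H3 is placed by the coactivators p300 and CBP at enhancers and promoters in use. Monomethylation of lysine 4 is laid down by MLL3 and MLL4 at enhancers, often before acetylation and also beside promoters, where the nucleosomes next to the start carry trimethylation instead. An enhancer with H3K4me1 and without H3K27ac is usually called primed, and one with both is called active. Comparing the marks therefore shows whether a site acetylated in 1 state carried the enhancer mark in the other states.

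The sequences below are shown because they stand for the kinds of region that the results turn on. They are the 300 bp at the centre of the region, read from the mm9 build of the genome on the plus strand, 5′ to 3′. The first set lies away from start sites, and capitals mark matches to the 16 short motifs searched below. It holds the widest D-EPSC-only region, between genes 48.7 kb from the start of Cox7c, the widest regions near Lef1 and Foxo1, a region in Efnb2 and a region in an intron of Znrf3.

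Widest region, nearest start Cox7c, chr13:86237759-86238058: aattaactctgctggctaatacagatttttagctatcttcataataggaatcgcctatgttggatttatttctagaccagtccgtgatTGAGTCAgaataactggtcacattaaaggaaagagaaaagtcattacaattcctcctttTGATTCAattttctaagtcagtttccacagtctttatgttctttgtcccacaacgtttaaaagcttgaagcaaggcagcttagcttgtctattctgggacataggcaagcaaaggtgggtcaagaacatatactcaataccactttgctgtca
Region upstream of Lef1, chr3:130805204-130805503: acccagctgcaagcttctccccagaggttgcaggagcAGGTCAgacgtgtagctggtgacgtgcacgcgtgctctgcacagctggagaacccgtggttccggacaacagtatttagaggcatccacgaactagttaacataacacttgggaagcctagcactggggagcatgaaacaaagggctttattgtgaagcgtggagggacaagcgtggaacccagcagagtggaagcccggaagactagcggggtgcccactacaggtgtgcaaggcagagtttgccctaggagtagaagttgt
Region near Foxo1, chr3:52059104-52059403: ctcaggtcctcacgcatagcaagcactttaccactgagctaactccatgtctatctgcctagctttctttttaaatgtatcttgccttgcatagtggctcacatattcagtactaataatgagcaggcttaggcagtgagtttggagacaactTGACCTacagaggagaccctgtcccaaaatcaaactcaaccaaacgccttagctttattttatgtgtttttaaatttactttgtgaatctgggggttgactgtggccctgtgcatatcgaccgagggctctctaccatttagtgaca
Region within Efnb2, chr8:8639587-8639886: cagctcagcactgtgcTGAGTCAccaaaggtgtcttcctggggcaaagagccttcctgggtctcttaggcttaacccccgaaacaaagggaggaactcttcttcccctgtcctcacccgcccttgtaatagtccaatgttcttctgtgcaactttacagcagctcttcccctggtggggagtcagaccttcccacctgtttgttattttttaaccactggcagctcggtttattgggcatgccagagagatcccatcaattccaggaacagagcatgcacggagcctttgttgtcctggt
Intron of Znrf3, chr11:5333738-5334037: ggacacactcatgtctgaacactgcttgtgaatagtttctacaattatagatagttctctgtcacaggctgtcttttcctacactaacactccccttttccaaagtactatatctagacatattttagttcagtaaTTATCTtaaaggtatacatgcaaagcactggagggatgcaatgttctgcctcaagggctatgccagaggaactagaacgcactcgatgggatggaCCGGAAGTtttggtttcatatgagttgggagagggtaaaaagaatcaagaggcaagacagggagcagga

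The window in the widest region held 2 matches to the AP-1 motif. The region in Efnb2 was chosen because its window held an AP-1 match, so the 1 match there is not a result. The window in Znrf3 held an ETS match and a GATA match. The windows at Lef1 and Foxo1 each held 1 match to the nuclear receptor motif.

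The second set comes from regions at start sites, and capitals mark CpG dinucleotides. It holds the centre of the regions over the starts of Dusp4 and Casp8ap2, which lies upstream of the start itself in both cases, and the 157 bp between the divergent start sites of Slc25a32 and Dcaf13, which share 1 D-EPSC-only region.

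Region over the Dusp4 start, centre, chr8:35869579-35869878: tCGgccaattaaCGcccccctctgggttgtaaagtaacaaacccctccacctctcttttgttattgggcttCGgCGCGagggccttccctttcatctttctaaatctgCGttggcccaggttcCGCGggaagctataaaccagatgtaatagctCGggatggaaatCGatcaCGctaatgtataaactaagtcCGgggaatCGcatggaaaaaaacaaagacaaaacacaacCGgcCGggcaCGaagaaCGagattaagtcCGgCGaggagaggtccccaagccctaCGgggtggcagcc
Region over the Casp8ap2 start, centre, chr4:32701971-32702270: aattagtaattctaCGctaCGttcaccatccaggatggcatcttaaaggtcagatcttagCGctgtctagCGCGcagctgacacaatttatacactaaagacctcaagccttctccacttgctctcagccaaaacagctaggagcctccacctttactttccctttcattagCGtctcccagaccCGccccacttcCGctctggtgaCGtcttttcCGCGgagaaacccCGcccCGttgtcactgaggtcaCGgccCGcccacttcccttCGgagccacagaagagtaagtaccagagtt
Between Slc25a32 and Dcaf13, chr15:38944263-38944419: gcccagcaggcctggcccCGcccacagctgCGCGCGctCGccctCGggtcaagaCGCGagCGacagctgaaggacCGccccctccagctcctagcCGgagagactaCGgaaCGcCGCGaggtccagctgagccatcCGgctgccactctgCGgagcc

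These windows held 20, 16 and 17 CpG dinucleotides, and their GC content was 52.3%, 52.7% and 72.6%. The windows of the first set held 3 or 4 CpG dinucleotides, except for that at Lef1, with 11.

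The regions were narrow. Their median width was 460.0 bp, with the middle 50% between 289.0 and 733.0 bp, a narrowest of 197 bp and a widest of 5360 bp. The median was 419.0 bp for L-EPSC-only regions, 649.0 bp for ESC-only regions, 832.0 bp for regions shared by both EPSC types and 2806.5 bp for regions of all 3 states. The D-EPSC-only class was thus the narrowest but for that of L-EPSCs. The nearest H3K27ac peak of ESCs or L-EPSCs lay a median of 7044 bp away. For 843 regions (19.9%) it lay within 1 kb, and for 1862 regions (43.9%) it lay more than 10 kb away. Just inside the rule, the smallest gap was 1 bp and 131 regions had a gap of at most 100 bp. Just outside it, 304 D-EPSC peaks were overlapped by at most 100 bp of a peak of another state.

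H3K4me1, which the rule did not use, was present in D-EPSCs at 2952 of the D-EPSC-only regions (69.6%, 95% interval 68.2 to 70.9). In L-EPSCs it was present at 2779 of them (65.5%, 64.1 to 66.9). In ESCs it was present at 2121 (50%, 48.5 to 51.5). The share was thus highest in the state that held the acetylation, and it was higher in L-EPSCs, where the acetylation was not called, than in ESCs. The L-EPSC-only regions showed the mirrored order for the EPSC types, with 77.9% in L-EPSCs, 51.9% in D-EPSCs and 49.9% in ESCs. At ESC-only regions the share was highest in ESCs (82.2%), followed by 64.2% in D-EPSCs and 60.9% in L-EPSCs. Regions of both EPSC types had 65.2% in D-EPSCs, 77.3% in L-EPSCs and 40% in ESCs, so ESCs were lowest there too. Over all union regions the shares were 73.1%, 72.3% and 79.6% in the same order of states. The D-EPSC-only regions thus lay below all union regions in each state, and furthest below in ESCs. Counted in bases, H3K4me1 covered 68% of the D-EPSC-only regions in D-EPSCs, 58.4% in L-EPSCs and 45.8% in ESCs.

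**Figure D1:**
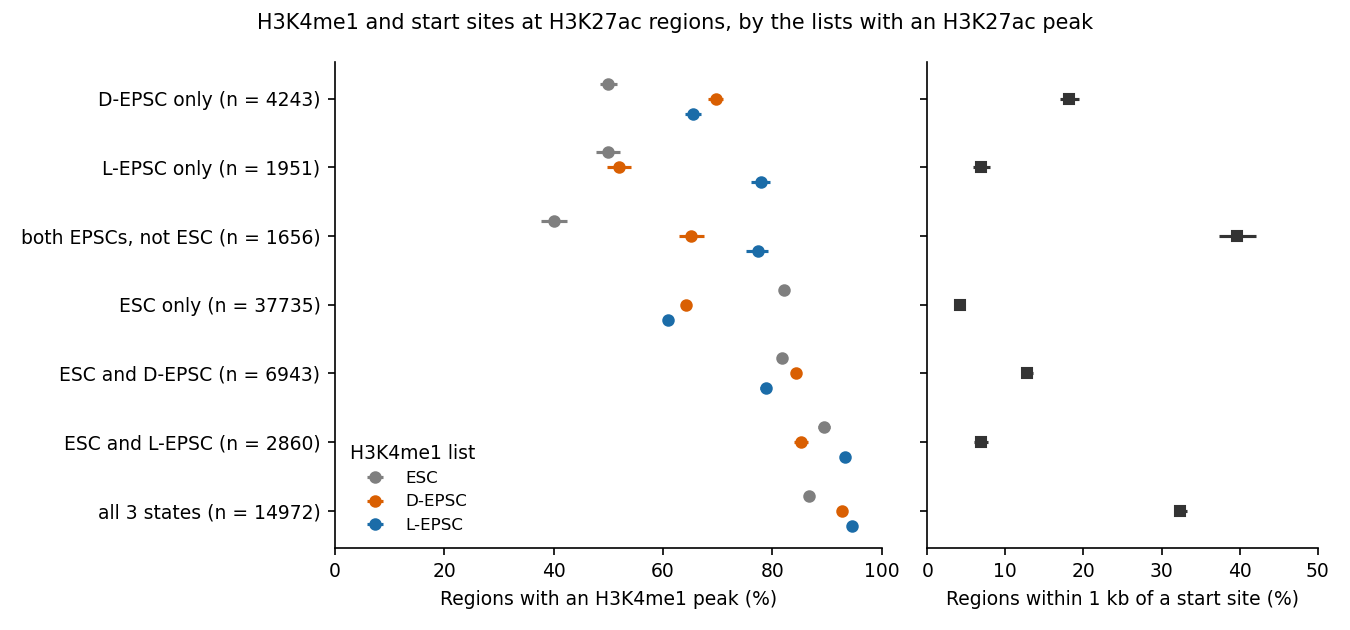
Left, share of H3K27ac regions (x axis, %) with an H3K4me1 peak in ESCs (grey), D-EPSCs (orange) and L-EPSCs (blue), by the lists that held the H3K27ac peak (y axis); right, share within 1 kb of a start site. Bars are 95% Wilson intervals over regions. D-EPSC-only regions sit at 69.6% in D-EPSCs, 65.5% in L-EPSCs and 50% in ESCs, and 18.2% of them lie at a start site.

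Region by region, the largest group of D-EPSC-only regions carried H3K4me1 in all 3 states (1884 regions, 44.4%). That the acetylation call differed there is set by the rule. A further 648 regions (15.3%) carried H3K4me1 in both EPSC types and not in ESCs. H3K4me1 was found in the D-EPSC list alone at 241 regions (5.68%). No state had an H3K4me1 peak at 1004 regions (23.7%), of which 293 were at start sites. H3K4me1 in L-EPSCs alone, at 229 regions, was placed mainly at start sites (132 of 229). The combinations of ESCs with 1 or no EPSC type were small, with 179 regions for ESCs and D-EPSCs, 40 for ESCs alone and 18 for ESCs and L-EPSCs.

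Where all 3 states carried the mark, its extent still differed. The D-EPSC H3K4me1 peaks covered the whole of 81.8% of these 1884 regions, against 62.8% for L-EPSCs and 58.3% for ESCs. More bases were covered in D-EPSCs than in ESCs at 740 regions and fewer at 95. More bases were covered in D-EPSCs than in L-EPSCs at 614 regions and fewer at 153. At the L-EPSC-only regions with the mark in all 3 states, D-EPSCs covered more than ESCs at 193 and fewer at 196. At ESC-only regions the corresponding counts were 1963 and 8718, and at regions of both EPSC types 393 and 74. The lean towards D-EPSCs over ESCs was thus not particular to the D-EPSC-only regions. H3K4me1 in D-EPSCs also went with width, from 58.2% of the narrowest 25% of the D-EPSC-only regions to 87.2% of the widest 25%. In ESCs it went from 40.8% to 68.8%, and in L-EPSCs from 55.8% to 84.1%. A region counts at 1 bp of overlap, so a wider region has more room for an overlap.

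Regions were next placed against the gene annotation. Of the D-EPSC-only regions, 771 (18.2%, 95% interval 17 to 19.4) lay within 1 kb of the start of a protein-coding gene, 306 (7.21%) overlapped an exon elsewhere, 1367 (32.2%) lay in introns and 1799 (42.4%) lay between genes. The share at start sites was 6.87% for L-EPSC-only regions, 4.21% for ESC-only regions, 39.7% for regions of both EPSC types and 12.9% over all union regions. With the lists of each state shortened to the same number of widest peaks, it was 16.1% for D-EPSC-only and 12.7% for L-EPSC-only regions. D-EPSC-only regions at start sites were GC-rich, with a median GC content of 66.3% and a median of 26 CpG dinucleotides in the central 300 bp. Away from start sites the medians were 45% and 3. The ratio of observed to expected CpG was 0.813 at start sites and 0.181 away from them. The start-site regions of L-EPSCs alone had a GC content of 57.3% and 15 CpG dinucleotides, and those of ESCs alone 50% and 5. Those shared by both EPSC types were like the D-EPSC-only ones, with 66%, 27 CpG dinucleotides and a ratio of 0.858. The classes also differed in width at start sites, so their central windows need not lie equally far from the start.

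The split by position separated the H3K4me1 patterns. At start sites, H3K4me1 overlapped 44.7% of the D-EPSC-only regions in D-EPSCs, 59.1% in L-EPSCs and 15.7% in ESCs. Away from start sites it overlapped 75.1% in D-EPSCs, 66.9% in L-EPSCs and 57.6% in ESCs. The order of the EPSC types was therefore opposite in the sets. The same turn was seen over all union regions, where D-EPSCs had 80.8% at start sites and 72% elsewhere, and L-EPSCs 86.6% and 70.2%. ESCs were lowest in both sets of D-EPSC-only regions, while over all union regions they were lowest at start sites (65.3%) and highest elsewhere (81.7%).

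H3K27ac within 1 kb of the start in D-EPSCs, from a D-EPSC-only region, with no peak of ESCs or L-EPSCs there, was found at 727 of 22350 protein-coding genes (3.25%). For comparison, 5408 genes (24.2%) had a start acetylated in all 3 states and 1291 (5.78%) a start acetylated in ESCs alone. The D-EPSC-only starts resembled the starts acetylated in all 3 states in base composition, with a median GC content of 60.3% against 59.8% in the 1 kb around the start, and 54.5% for the starts of ESCs alone. A start of another gene on the opposite strand lay within 1 kb for 22.6% of them, for 22.6% of the starts acetylated in all 3 states and for 10.9% of all genes. H3K4me1 was found within 1 kb of 98.1% of the D-EPSC-only starts in D-EPSCs, 98.2% in L-EPSCs and 83.5% in ESCs. Directly over the first base the shares were 19.8%, 31.2% and 4.95%. The shares within 1 kb were close to those of the starts acetylated in all 3 states, with 97.4% in D-EPSCs, 99.1% in L-EPSCs and 82.1% in ESCs. Over the first base, the starts acetylated in all 3 states had lower shares in D-EPSCs (15.9%) and L-EPSCs (23.9%), and 5.82% in ESCs. Over all genes, H3K4me1 lay within 1 kb of the start for 67.1%, 68% and 57.5% in the same order of states. Over the first base it lay for 26.2%, 31.8% and 11.4%.

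The 10 genes with the widest region at such a start were Tspan9, Dusp4, 1700022P22Rik, Tmem57, Hmgb3, Slc27a2, Vmn1r1, Casp8ap2, Slc25a32 and Dcaf13. The region at Tspan9, which encodes a tetraspanin of the cell membrane, measured 3233 bp and began 55 bp downstream of the start. The region over the start of Dusp4, a phosphatase that inactivates ERK in the nucleus, measured 3140 bp (chr8:35868159-35871298). Within Dusp4 and 10 kb on either side, H3K27ac covered 3.14 kb in D-EPSCs and 0 kb in ESCs and L-EPSCs, and the nearest ESC peak lay 22.4 kb from the region. H3K4me1 was present in all 3 states at Dusp4, with 12.7 kb in D-EPSCs, 7.18 kb in ESCs and 8.89 kb in L-EPSCs.

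At Hmgb3, an X-linked gene for a chromatin protein, the region measured 1720 bp and the nearest H3K27ac peak lay 331.8 kb away in ESCs and 2116.4 kb away in L-EPSCs. No H3K4me1 of ESCs or D-EPSCs overlapped that region, and 309 bp of L-EPSC H3K4me1 did. At Slc27a2, which encodes an acyl-CoA synthetase for very long chain fatty acids, the region measured 1599 bp and was the sole H3K27ac within 10 kb of the gene in any state. Slc25a32, for the mitochondrial folate carrier, and Dcaf13, for a protein of ribosomal RNA processing, shared a region of 1580 bp over both starts. The region at Casp8ap2, a factor of histone pre-mRNA processing, measured 1585 bp. H3K27ac near Casp8ap2 came to 3.43 kb in D-EPSCs, 0.688 kb in ESCs and 1.72 kb in L-EPSCs. Vmn1r1, a vomeronasal receptor gene, had 4 D-EPSC-only regions within 10 kb that added up to 4.38 kb.

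Chromosome X held 124 of the D-EPSC-only regions (2.92%, 95% interval 2.46 to 3.47), against 1.17% of all union regions, 1.03% of L-EPSC-only, 0.861% of ESC-only and 4.95% of both-EPSC regions. Of all 465 regions with D-EPSC H3K27ac on chromosome X, 26.7% were D-EPSC-only. On the autosomes this share ran from 11.7% on chromosome 7 to 19.1% on chromosome 13, with a median of 15.1%. Chromosome X accounted for 37 of the 771 regions at start sites (4.8%) and for 87 of the 3472 regions elsewhere (2.51%). Counted by gene, it held 4.54% of the D-EPSC-only starts, near its 4.17% of all protein-coding genes, and 1.24% of the starts acetylated in all 3 states. Of the L-EPSC-only regions, chromosome X held 1 of 134 at start sites (0.746%) and 19 of 1817 elsewhere (1.05%). The share of D-EPSC-only regions on chromosome X was therefore higher than that of L-EPSC-only regions in both places, although the latter rests on 1 region at start sites. It was lower in both places than in regions shared by the EPSC types (5.94% and 4.3%). With lists of equal length the share was 2.25% of D-EPSC-only and 1.35% of L-EPSC-only regions.

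**Figure D2:**
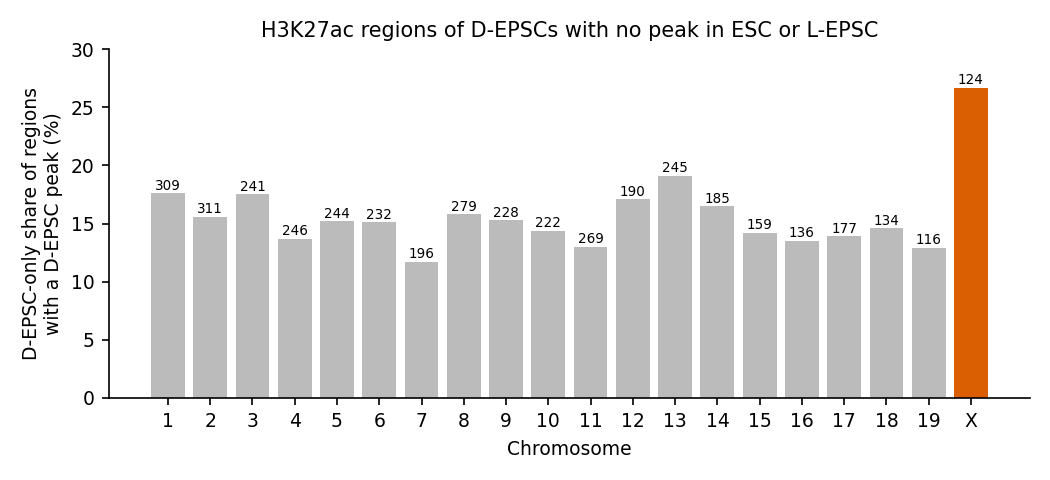
Share of the H3K27ac regions with a D-EPSC peak that had no peak in ESCs or L-EPSCs (y axis, %), by chromosome (x axis), with the number of D-EPSC-only regions above each bar. Chromosome X (orange) stands at 26.7% and the autosomes between 11.7% and 19.1%.

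A D-EPSC-only region lay in the gene or within 10 kb of it for 2942 of 22350 protein-coding genes (13.2%), and an L-EPSC-only region for 1047 (4.68%). The D-EPSC-only class also has more regions than the L-EPSC-only class, so that these shares are not on an equal footing. Longer genes offer more room, and the 2942 genes had a median span of 34.7 kb against 15.4 kb for all genes. Among the 12574 genes with any D-EPSC H3K27ac in that window, 23.4% had a D-EPSC-only region. The 14 gene lists were read against these shares.

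Targets and feedback regulators of ERK, the kinase that MEK activates in response to FGF4 in pluripotent cells, had the highest share of the 14 lists, 7 of 20 genes (35%), with 0 of 20 near an L-EPSC-only region. Their median span was 5.85 kb, and 18 of the 20 had some D-EPSC H3K27ac, so that the 7 are 38.9% of these. Among genes with any D-EPSC H3K27ac, the Wnt list was higher (55.6%). Near an ESC-only region lay 14 of the 20, beside 10950 of all 22350 protein-coding genes. All 7 were also found when regions within 1 kb of an ESC or L-EPSC peak were left out (35%, against 10.5% of all genes), and 3 of them (Dusp4, Egr2 and Dusp5) when regions within 10 kb were left out (15%, against 5.14%). The first rank did not hold with peaks of at least 500 bp, where ERK targets had 5 of 20 (25%), the formative list 8 of 18 (44.4%) and all genes 10.9%. With the widest 50% of D-EPSC peaks these shares were 10%, 16.7% and 2.68%. PD0325901 was in the media of ESCs and L-EPSCs and not in that of D-EPSCs, and its part in this count was not tested.

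Of the feedback inhibitors, Dusp4, Dusp5 and Spry1 had the region at the start. At Dusp5, another nuclear ERK phosphatase, it was 205 bp wide and lay over the start, with 0.645 kb of H3K27ac near the gene in D-EPSCs, 0 kb in ESCs and 0.311 kb in L-EPSCs. At Spry1, an inhibitor of receptor tyrosine kinase signalling, it was 622 bp wide and began 37 bp downstream of the start, and the gene had 0.622 kb in D-EPSCs, 0.593 kb in ESCs and 0 kb in L-EPSCs. Of the transcription factors, the ETS family members Etv1, Etv4 and Etv5 had regions in the gene or upstream. Etv4 had 3.65 kb of H3K27ac in D-EPSCs, 2.16 kb in ESCs and 0 kb in L-EPSCs. Etv5 was broadly acetylated in each state, with 45.2 kb in D-EPSCs, 54.1 kb in ESCs and 36.7 kb in L-EPSCs, and its 2 D-EPSC-only regions came to 0.833 kb. Egr2, an immediate early zinc finger gene, had a region of 208 bp in an intron, 2.06 kb from its start.

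The Wnt list came next, with 5 of 15 genes (33.3%) near a D-EPSC-only region and 2 of 15 near an L-EPSC-only region. All 5 encode parts of the pathway or its targets: Lef1, Tcf7 and Tcf7l2 are the DNA-binding partners of β-catenin, Znrf3 is a ubiquitin ligase that removes Wnt receptors, and Tnfrsf19 is a receptor of the TNF family. Lef1 differed from the other 4 in size and isolation. H3K27ac within Lef1 and 10 kb on either side covered 5.9 kb in D-EPSCs, 0 kb in ESCs and 0 kb in L-EPSCs, in 4 regions of which 3 lay upstream of the start and 1 in an intron 71.5 kb into the gene. The upstream region of 3698 bp (chr3:130803505-130807202) lay 6.19 kb from the start and was the seventh widest among regions without an ESC or L-EPSC peak within 10 kb. H3K4me1 covered all of it in D-EPSCs, 3523 bp of it in ESCs and 2593 bp in L-EPSCs. Over the whole Lef1 window H3K4me1 came to 42.5 kb in D-EPSCs, 17.1 kb in ESCs and 14.8 kb in L-EPSCs. At Tcf7, Tcf7l2, Znrf3 and Tnfrsf19 the D-EPSC-only regions came to 0.636, 0.283, 0.309 and 0.237 kb, and H3K27ac was more extended in ESCs than in D-EPSCs at each of the 4, for example 29.3 kb against 9.74 kb at Znrf3. Tcf7l2 and Tnfrsf19 were lost when regions within 1 kb of a peak of another state were left out, and Lef1 alone was left at 10 kb. With peaks of at least 500 bp the list had 1 of 15 genes (6.67%), below the 10.9% of all genes. CHIR99021, which stabilises β-catenin, was at 3 µM in all 3 media.

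**Figure D3:**
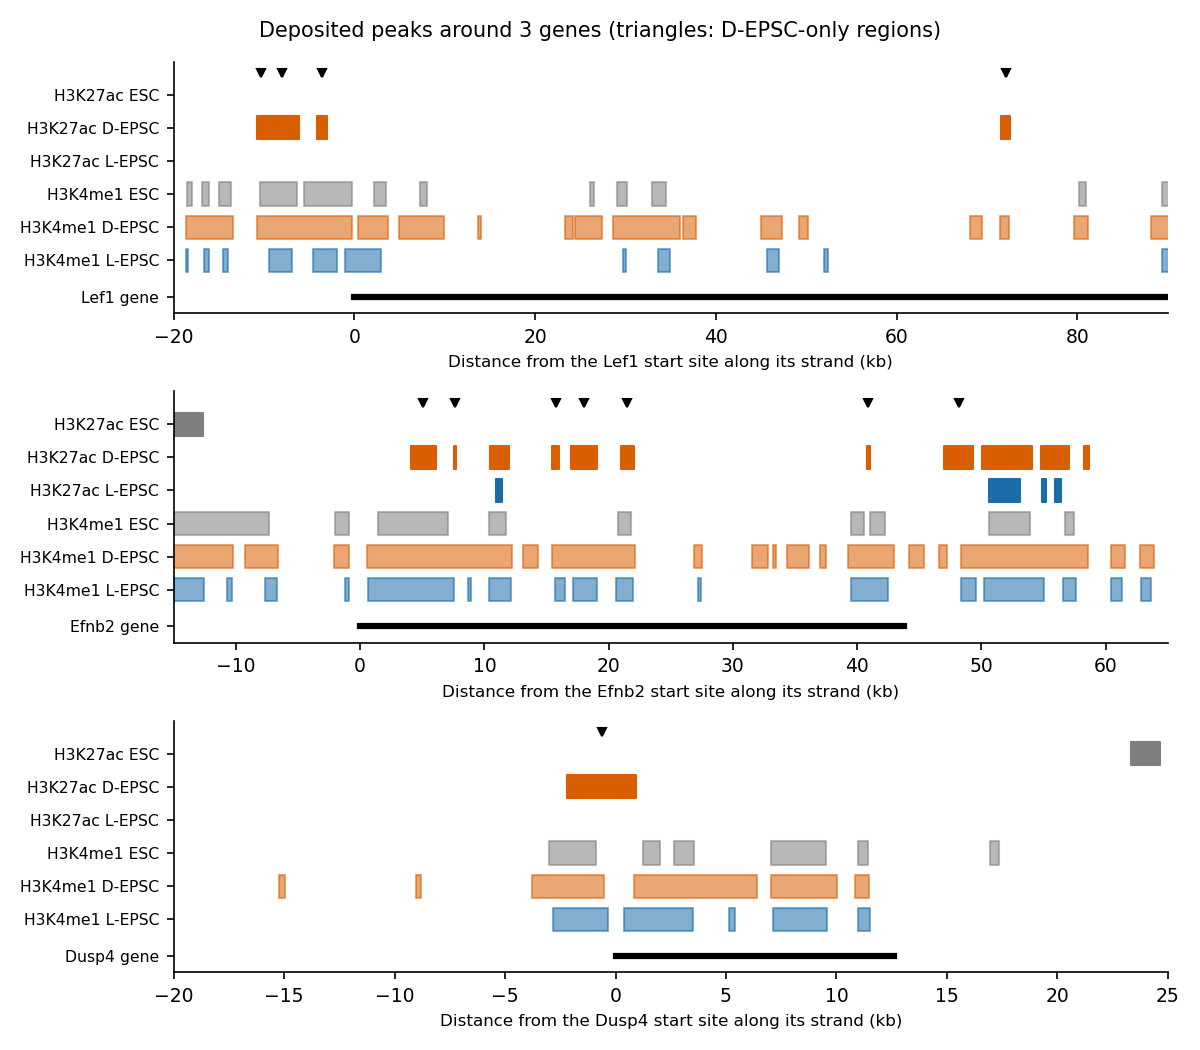
Deposited peaks of both marks (rows, by state) around Lef1, Efnb2 and Dusp4, against the distance from the start site along the strand of the gene (x axis, kb); black bars are the genes and triangles the D-EPSC-only regions within 10 kb of the gene. No H3K27ac of ESCs or L-EPSCs lies near Lef1 or over Dusp4, while H3K4me1 of all 3 states does.

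Genes of formative and primed pluripotency, which are switched on as naive cells prepare for differentiation, were near a D-EPSC-only region in 5 of 18 cases (27.8%) and near an L-EPSC-only region in 1. Among them were Grhl2, Sall2, Fgf15 and Cdh2. Cdh2, for N-cadherin, had 2.75 kb of H3K27ac in D-EPSCs, 0.527 kb in ESCs and 0 kb in L-EPSCs. Grhl2, a factor of epithelial identity, had a region of 1566 bp that ended 236 bp from an ESC peak and was lost when regions within 1 kb of such a peak were left out. Fgf15, a growth factor gene, had more H3K27ac in ESCs (9.26 kb) than in D-EPSCs (2.69 kb), and its region measured 536 bp. Sall2, a zinc finger gene, had a region of 783 bp that began 285 bp upstream of the start.

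The core and naive pluripotency list had 4 of 20 genes (20%) near a D-EPSC-only region and 3 of 20 near an L-EPSC-only region. All 20 had some D-EPSC H3K27ac, and among all genes with such H3K27ac the share was higher (23.4%). Gbx2 alone was left when regions within 10 kb of a peak of another state were left out. With the widest 50% of D-EPSC peaks the list had 0 genes. The naive factors Esrrb and Nr0b1 and the naive marker Dppa3 had regions of 578, 305 and 203 bp. At Esrrb the region was a small part of 41.4 kb of H3K27ac in D-EPSCs, beside 62.1 kb in ESCs and 47.6 kb in L-EPSCs. At Gbx2, a homeobox gene of the naive state, the region of 699 bp was all the H3K27ac within 10 kb of the gene in any state, although H3K4me1 covered 21.3 kb in D-EPSCs, 20.1 kb in ESCs and 19 kb in L-EPSCs. No H3K4me1 peak overlapped that region. The region lay 2.22 kb from the Gbx2 start and within 1 kb of the start of another protein-coding gene.

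Of the 12 genes of DNA methylation, 3 (25%) had a D-EPSC-only region and 0 an L-EPSC-only region. Among the 11 with any D-EPSC H3K27ac the 3 are 27.3%, near the 23.4% of all such genes. All 12 lay near an ESC-only region, as did 10950 of all 22350 genes. Tdg was lost when regions within 1 kb of a peak of another state were left out, and Dnmt3a alone was left at 10 kb. Dnmt3a and Dnmt3b encode the de novo methyltransferases, and Tdg removes oxidised methylcytosine. Dnmt3a had 2 intronic regions and 13.7 kb of H3K27ac in D-EPSCs, 6.45 kb in ESCs and 7.51 kb in L-EPSCs. Dnmt3b had a region of 1417 bp 5.82 kb upstream of the start, and that region was all its H3K27ac in D-EPSCs (1.42 kb), beside 0.942 kb in ESCs at another place and 0 kb in L-EPSCs. H3K4me1 covered the whole region in all 3 states.

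The other 9 lists lay below the share of all genes. A single gene each was found in the lists for gastrulation and Nodal signalling (Bmp4, 1 of 16), trophoblast (Gata3, 1 of 14), neural progenitors (Pax6, 1 of 15), sterol synthesis and uptake (Fdft1, 1 of 19), retinoic acid (Rxra, 1 of 15), histamine and muscarinic receptors (Hrh2, 1 of 9) and fibroblast feeders (Lum, 1 of 14). The regions at these 7 genes were 250 to 657 bp wide. None was found among 11 genes of the 2-cell stage embryo, which also had no D-EPSC H3K27ac of any class, or among 16 genes of primitive endoderm, of which 4, among them Col4a1, Col4a2 and Sparc, were near an L-EPSC-only region. Hrh2 encodes the histamine H2 receptor, and its region of 542 bp ended 131 bp from an ESC peak. Lum, an extracellular matrix gene of fibroblasts, had a region of 657 bp 3.2 kb upstream of the start with no H3K4me1 peak and no other H3K27ac of any state near the gene.

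**Figure D4:**
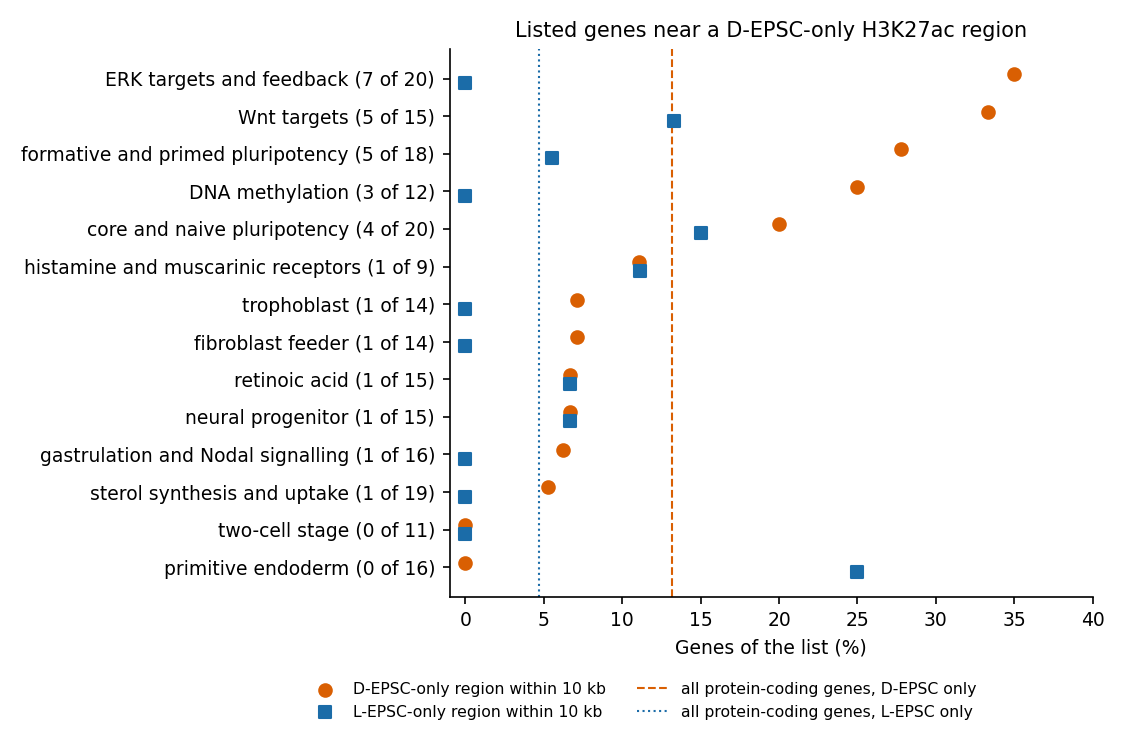
Share of the genes of each list (x axis, %) with a D-EPSC-only (orange circles) or L-EPSC-only (blue squares) H3K27ac region within 10 kb; the counts after each list name are those for D-EPSC-only regions. The lines give the shares over all protein-coding genes, 13.2% and 4.68%. Targets of ERK stand at 35% and Wnt targets at 33.3%.

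The widest D-EPSC-only regions without an ESC or L-EPSC peak within 10 kb were mostly away from genes. Of the 12 widest, 9 lay between genes, Adk and Fto held 1 each in an intron and Spire1 held 1 that overlapped an exon. The widest (chr13:86235229-86240588) measured 5360 bp, and H3K4me1 overlapped 4638 bp of it in L-EPSCs, 4548 bp in D-EPSCs and 3631 bp in ESCs. The next, of 5113 bp (chr10:21463097-21468209), lay 52.4 kb from the start of Gm5420, and H3K4me1 covered it whole in D-EPSCs, against 3120 bp in ESCs and 2455 bp in L-EPSCs. The region of 3978 bp near Foxo1 (chr3:52057265-52061242), a forkhead factor downstream of insulin signalling, lay 11 kb from its start and was covered whole by H3K4me1 in D-EPSCs, against 1938 bp in ESCs and 1598 bp in L-EPSCs. A region of 3455 bp (chr4:29016835-29020289) had no ESC peak within 277.0 kb and lay 276.6 kb from the start of Epha7. All 12 carried H3K4me1 in all 3 states. It covered the whole region in D-EPSCs at 7 of the 12 and in ESCs at 1, the twelfth widest, where D-EPSCs covered 2645 of 3308 bp.

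The 10 genes with the most bases of D-EPSC-only regions were Bnc2, Efnb2, Nfib, Spire1, Sfi1, Lef1, Fto, Galnt7, Frmd5 and Gm20388. Bnc2, a zinc finger gene, had 10 regions that came to 8.9 kb, within 41 kb of H3K27ac in D-EPSCs, 21.6 kb in ESCs and 11 kb in L-EPSCs. Efnb2, which encodes the membrane-bound ligand ephrin-B2 of Eph receptors, had 7 regions that came to 8.35 kb. H3K27ac within 10 kb of Efnb2 covered 13.6 kb in D-EPSCs, 0 kb in ESCs and 3.01 kb in L-EPSCs, and H3K4me1 covered 38.9 kb in D-EPSCs, 17.3 kb in ESCs and 22.6 kb in L-EPSCs. At 5 of the 7 regions of Efnb2 no ESC H3K4me1 was found, and all 7 carried it in D-EPSCs. At Nfib and Fto, by contrast, ESCs had more H3K27ac than D-EPSCs, 80.3 against 29.3 kb at Nfib, a nuclear factor I gene, and 53.1 against 29.1 kb at Fto, an RNA demethylase gene. Gm20388 is an annotated span of 4.4 Mb across many other genes, so that its 12 regions cannot be assigned to 1 gene. At Sfi1, a centrosome gene, 4 of 10 regions carried H3K4me1 in D-EPSCs.

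D-EPSC-only regions were mostly isolated from each other. With regions joined when at most 20 kb apart, 3097 (73%) stood alone, 404 pairs were formed and 338 regions fell into 98 chains of 3 or more. The longest chain held 8 regions over 54.6 kb at Efnb2, and the next longest held 7 each at Galnt7, over 52.5 kb, and at Sfi1 and Drg1, over 21 kb. Repeats and multi-copy sequence were not marked here, so whether the regions at Sfi1 lie in such sequence was not tested.

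Short motifs were counted in the central 300 bp of each region on both strands, as a description of sequence and not of binding. Away from start sites, the AP-1 motif TGANTCA of Fos and Jun was found in 13.8% of the D-EPSC-only regions (95% interval 12.7 to 15). It was found in 11% of L-EPSC-only, 9.64% of ESC-only and 10.7% of all regions, and in 13.7% of the regions shared by ESCs and D-EPSCs. The GATA motif AGATAA was found in 16.9% of the D-EPSC-only regions (15.7 to 18.2), 13.9% of L-EPSC-only, 14% of ESC-only, 14.5% of all and 16.6% of regions shared by ESCs and D-EPSCs. In regions of both EPSC types the AP-1 share was 13.2%, within the interval of the D-EPSC-only regions, and the GATA share was 13.3%.

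Motifs of nuclear receptors were lower than over all regions, as they were in regions of both EPSC types (AGGTCA in 18.2%, ESRRB in 1%). The letters AGGTCA were found in 17% of the D-EPSC-only regions away from start sites (15.8 to 18.2), against 20.6% of L-EPSC-only, 21.8% of ESC-only and 21.2% of all regions. The longer ESRRB motif TCAAGGTCA, which contains them, was found in 0.691% (0.465 to 1.03), against 1.43%, 1.53% and 1.5%. The KLF motif GGGTGTGG was found in 2.74%, against 3.82% of all regions and 2.4% of regions of both EPSC types. The TCF/LEF motif ATCAAAG was found in 5.21% of D-EPSC-only regions (4.52 to 6), an interval that holds the 4.6% of all regions. The SOX motif ACAATGG was found in 5.13% (4.44 to 5.91), against 4.38% of all regions and 6.51% of regions of both EPSC types.

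At start sites, some motifs known from many promoters were more frequent than over all regions, and others were not. The NRF1 motif GCGCANGCG was found in 8.43% of the D-EPSC-only regions there (6.67 to 10.6), the ETS motif CCGGAAGT in 6.23% (4.73 to 8.16) and the Zfp281 motif CCCCTCCCC in 8.56% (6.79 to 10.7). Over all regions at start sites the shares were 6.15%, 3.71% and 6.15%, and for L-EPSC-only regions they were 2.99%, 2.24% and 5.22%. The GATA motif was found in 4.41% of the D-EPSC-only regions at start sites and in 8.75% of all. The Ronin/GFY motif ACTACAA was found in 2.59% of the D-EPSC-only regions there and in 2.74% of all. In regions shared by both EPSC types the NRF1 and ETS shares were 7.76% and 7%. In windows of 1000 bp the Zfp281 share was 19.5% (16.8 to 22.4), and the 17.2% of all regions lay within its interval, while NRF1 stood at 21.1% against 14.9% and ETS at 14.7% against 9.31%. These motifs are rich in G and C, as are the start-site regions of D-EPSCs, and base composition was not matched between the classes. The place of the window relative to the start was not matched either. At start sites the median width was 402.0 bp for D-EPSC-only and 1300.0 bp for all regions.

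**Figure D5:**
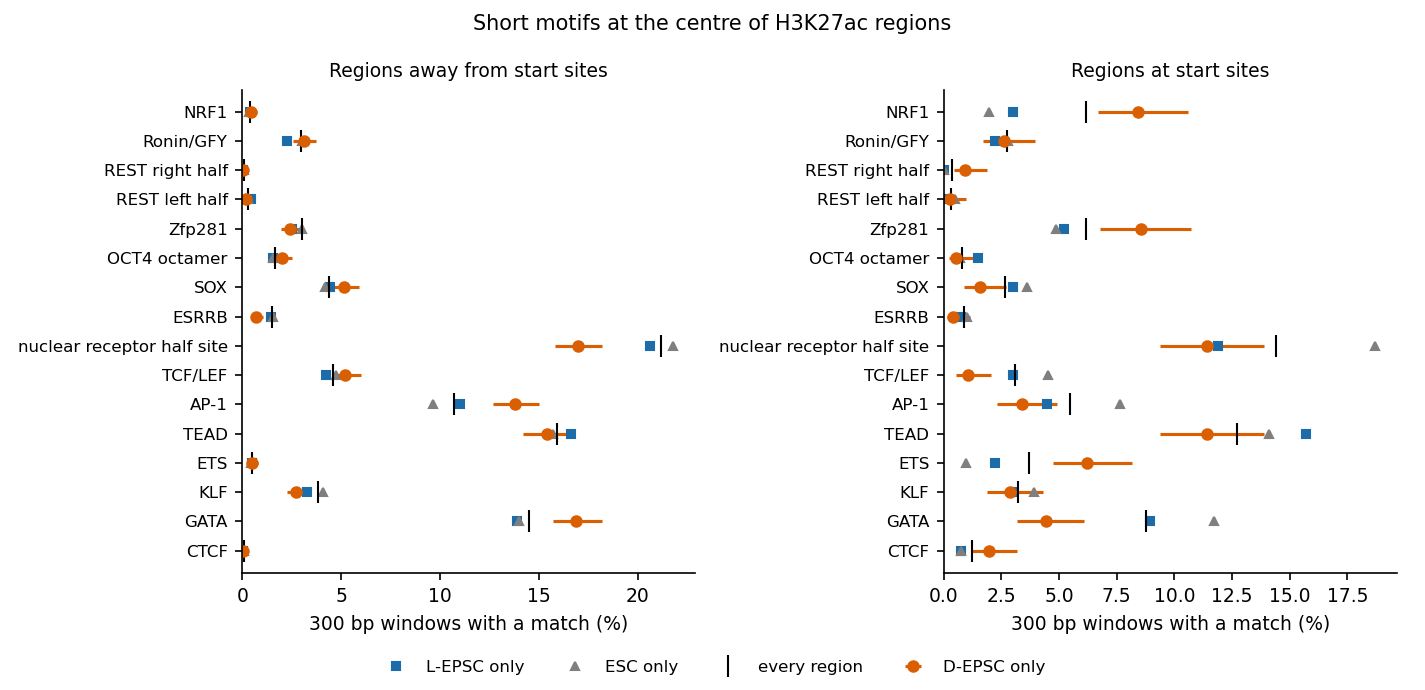
Share of central 300 bp windows with a match to each of 16 motifs (x axis, %; each panel has its own scale), away from start sites (left) and at start sites (right), in D-EPSC-only (orange circles, with 95% Wilson intervals), L-EPSC-only (blue squares), ESC-only (grey triangles) and all H3K27ac regions (black ticks). Away from start sites the AP-1 share of D-EPSC-only regions is 13.8% and that of all regions 10.7%.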

How the data were processed

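ChIP-seq of H3K27ac and H3K4me1 was analysed in ESCs, D-EPSCs and L-EPSCs, from 6 deposited peak lists, 1 per state and mark. Before deposit, the authors mapped paired reads to the mm9 build (Bowtie2) and ran MACS in broad mode with input as control. The submitters' processing notes name Bowtie2 2.3.5, SAMtools 1.10, FastQC 0.10.1, Trim Galore 0.6.3, cutadapt and HOMER. The deposited values are peak starts and ends, with no score. Peak thresholds and the handling of the 2 samples per mark are not stated in the sources used here, and both can change which peaks are listed.

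Peaks of the 3 H3K27ac lists that overlapped or touched were merged. An overlap was at least 1 bp, and nearness was the gap in bp. Start sites were the starts of 22350 protein-coding genes of GENCODE M1, on NCBIM37 (mm9), widened by 1 kb. Genes were widened by 10 kb. Of 218 listed genes 214 were matched, 3 of them through older symbols. Sequences and 16 motifs (both strands, windows of 300 bp) were read from NCBIM37. Coordinates are 1-based.

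The regions, gene lists and motifs were chosen with earlier results of these data known. Named regions were the 12 widest with no peak of another state within 10 kb. Named genes were the 10 with the most bases of these regions, the 10 with the widest region at the start, and every listed gene near a region. Some listed genes are not reported here. The printed sequences and mapped genes were picked from these after their values were seen. With 1 list per group no test was made. Alternatives were stricter gaps, wider peaks, lists of equal length, other overlaps, other gene and start windows and longer motif windows. Interval functions were tested on simulated data. Python 3.11.15, pandas 2.3.3, NumPy 2.4.6, SciPy 1.17.1 and Matplotlib 3.10.9 were used.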

Additional observations from a re-analysis of the deposited data

How the results depend on the processing

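In each of the 7 alternatives that changed the regions or the H3K4me1 rule, the share of D-EPSC-only regions with H3K4me1 was highest in D-EPSCs and lowest in ESCs. Without an ESC or L-EPSC peak within 1 kb, the ESC share was 48.3%. At 10 kb, 1862 regions were left (median width 475.5 bp, 4.14% on chromosome X), with H3K4me1 at 47.6% in ESCs and 68.1% in L-EPSCs, near 1148 genes and at 367 starts. With peaks of at least 500 bp in all lists, the median width was 783.0 bp, H3K4me1 stood at 76.6% (D-EPSCs), 57% (ESCs) and 75% (L-EPSCs), and 24.5% lay at start sites. With lists of equal length, these values were 654.0 bp, 75.5%, 60.7%, 70.3% and 16.1%, with 2.25% on chromosome X. The widest 50% of the D-EPSC list left 857 regions (1208.0 bp, 3.85% on chromosome X, 90.1%, 72.6%, 86.6% and 12%), near 600 genes and at 107 starts. With H3K4me1 within 1 kb the shares were 85.6%, 74.1% and 81.3%, and over at least 50% of the region 61.5%, 39.8% and 53.9%. Start sites widened by 2500 bp held 20.6%, and genes widened by 50 kb gave 5913 genes. The other 22 values stayed within the counting interval or within 1.5 times the count. Dropping peaks under 500 bp or keeping the widest 50% raises the median width by construction. Likewise, H3K4me1 within 1 kb can only raise the shares, and the rule of at least 50% can only lower them. Lists of equal length also drop the narrowest D-EPSC peaks, and a region whose ESC peak is dropped then counts as D-EPSC-only. How far this moved the width and the H3K4me1 shares was not tested, nor was the cause of the other shifts. No paired analysis was possible because each state and mark has 1 peak list, so samples could not be left out either. Depth is unknown from peak positions and limits every absence of a peak.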

Other observations

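Gene families at the 727 starts with H3K27ac in D-EPSCs alone were looked at after the values were seen. Of 77 genes for mitochondrial ribosomal proteins, 8 (10.4%) had such a start, among them Mrpl3, Mrps15 and Mrps33, and 36 (46.8%) had a start acetylated in all 3 states. Of 53 DEAD- and DEAH-box helicase genes, which act in RNA processing, 6 (11.3%) had such a start, among them Ddx21 and Ddx51. Of 25 dual-specificity phosphatase genes, 4 had it (Dusp4, Dusp5, Dusp7 and Dusp28). Of 371 genes with a Zfp symbol, 11 (2.96%) had such a start, and of 355 solute carrier genes 12 (3.38%), beside 3.25% of all genes. The sensory receptor families were nearly without it, with 3 of 1113 olfactory receptor genes and 2 of 328 vomeronasal receptor genes, and 0 of either had a start acetylated in all 3 states.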
